A study of Mus musculus with 6 samples.

Results

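The TNF receptor superfamily genes examined here were Tnfrsf18, Tnfrsf4, Tnfrsf9, Tnfrsf1a, Tnfrsf1b, Tnfrsf25, Fas and Cd27, receptors known from regulatory T (Treg) cells. They were taken by gene symbol, with every probe annotated to them, and make up 8 of 9593 genes tested and 21 of 45281 probes on the array. All 8 genes had a probe above background, as did 19 of their 21 probes. RNA came from CD4+ Foxp3-GFP+ peripherally induced Treg (pTreg) cells and was read on 6 Illumina MouseWG 6v2 bead arrays. Of these, 3 held Blimp1-sufficient cells (Ctrl, Prdm1+/+ CD4-Cre+, Thy1.1+) and 3 held Blimp1-deficient cells (CKO, C57BL/6 Prdm1 flox/flox CD4-Cre+, Thy1.2+). Donors of both genotypes were adult, carried the Foxp3-GFP reporter and the CD4-Cre transgene, and gave pooled lymph node and spleen cells. Naive CD4+ T cells of both were injected together into RAG1-/- mice, which have no T or B cells of their own, and the Foxp3-GFP+ cells were recovered some weeks later. CD4-Cre is active in every T cell that passes through the CD4-expressing stage of the thymus, so the naive CKO donor cells already lacked Blimp1. The comparison asks how these receptors differ between cells with and without Blimp1 that became pTreg cells in the same host environment.

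Receptors of this superfamily are membrane proteins with cysteine-rich outer domains that bind trimeric ligands of the TNF family. One branch, with GITR (Tnfrsf18), OX40 (Tnfrsf4), 4-1BB (Tnfrsf9), CD27 (Cd27) and TNFR2 (Tnfrsf1b), recruits TRAF adaptors and feeds into NF-kappaB, and on Treg cells these receptors are known to control expansion, survival and suppressive activity. The other branch, with TNFR1 (Tnfrsf1a), DR3 (Tnfrsf25) and Fas, carries an intracellular death domain, through which Fas can start apoptosis, whereas DR3 is known to expand Treg cells when it is bound by its ligand.

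Before the receptors, the labels were set against marker genes. The labels call the cells peripheral Treg cells in one field and iTreg in another, and give the letters P+I, read here as a stimulus of phorbol ester and ionomycin, for replicates 2 and 3 only. For Foxp3, the gene of the sort, Ctrl replicates 1, 2 and 3 read 480, 212 and 141 and the CKO replicates 433, 165 and 216, with overlap of the groups. The summed intensity of 8 Treg markers, Foxp3 among them and led by Ctla4, was 8529 to 11088 in Ctrl and 4272 to 5730 in CKO. The median of the 8 was 388, 312 and 166 in Ctrl replicates 1, 2 and 3 and 226, 327 and 198 in the CKO replicates. This median was thus higher in CKO in replicates 2 and 3. Prdm1 gave 18.9, 50.9 and 49.2 in Ctrl and 561, 341 and 704 in CKO. It rose (adjusted p = 0.0276 from limma), and since no source used here places this probe relative to the deleted part, it checks nothing about the deletion. The study also listed Prdm1 as higher in both effector T cells and pTreg cells without Blimp1. It cited earlier reports that Blimp1 represses this gene directly. Of 8 T cell markers with a probe, 7 were above background on all 6 arrays, and the summed intensity of the 8 was 20669 to 26555 in Ctrl and 16893 to 20319 in CKO. Of 15 stimulation response genes 14 were above background on every array, and the median of the 15 lay at 1260, 1171 and 1232 in Ctrl and at 818, 1108 and 879 in CKO. Replicate 1, whose label names no stimulus, had the highest of these medians in Ctrl and the lowest in CKO. The sums of the 15 overlapped between the groups, with 53730, 39431 and 62590 in Ctrl and 53511, 52885 and 39267 in CKO. In replicate 2 the sum was higher in CKO. Of 7 myeloid markers, 6 were above background on at least 1 array, with sums of 22631, 2447 and 31547 in Ctrl and 12339, 1662 and 22082 in CKO, led by S100a8 and S100a9, while Itgam was at background on all arrays. Of 4 B cell markers none was above background on all arrays, and of 5 NK and CD8 T cell markers Cd8a, Ncr1 and Klrb1c were at background throughout, Klra1 was above it on 1 array and Cd8b1 on all 6, with 656, 809 and 1031 in Ctrl and 544, 625 and 934 in CKO. Of 5 markers of red and epithelial cells with a probe, only Hba-a1, a hemoglobin gene, was above background on all 6 arrays. It gave 1277, 531 and 1858 in Ctrl and 733, 557 and 1629 in CKO.

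In Blimp1-deficient pTreg cells 7 of the 8 receptor genes were lower than in Ctrl cells and 1, Tnfrsf25, was higher. The clearest differences were those of Tnfrsf18, 2.34-fold lower, and Tnfrsf1b, 2.21-fold lower, followed by Tnfrsf4, just under 1.5-fold lower. For these 3 genes every CKO array lay below every Ctrl array, as for 7.08% of all genes, while no receptor gene had all CKO arrays above all Ctrl arrays, as 5.95% of all genes did. The median log2 fold change, CKO minus Ctrl, was -0.49 over the 8 genes and 0.018 over all 9593, of which 47.6% were lower. At an adjusted p under 0.05 from limma, 0.271% of all genes were called and 0 of the 8. An unadjusted p under 0.05 was held by 3 of the 8 and by 773 of the 9593 genes. The thresholds of the study asked for a change of 1.5-fold or more together with p below 0.05 before adjustment. By these 2 of the 8 were lower, against 4.34% of all genes, and 0 were higher, against 3.09%. With the replicate number as a block, which takes out what the Ctrl and CKO arrays of a number shared, 1 of the 8, Tnfrsf1b, was lower at an adjusted p under 0.05, against 1.16% of all genes, and 0 were higher, against 0.751%. At the study's thresholds with the block, Tnfrsf18 and Tnfrsf1b were lower, against 7.28% of all genes, and Tnfrsf25 was higher, against 4.75%. The T cell markers had a median log2 fold change of -0.50, close to that of the receptors, with 6 of 7 lower and 1, Lat, at the study's thresholds. The myeloid markers had a median of -0.51, with 6 of 6 lower and 0 at the study's thresholds. The Treg markers had a median of -0.88, with 6 of 8 lower and 4 lower at the study's thresholds. Fewer T cells in a sorted sample and less RNA of these genes per cell cannot be told apart in bulk RNA, and the part of these or of myeloid RNA in the receptor values was not tested.

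**Figure D1:**
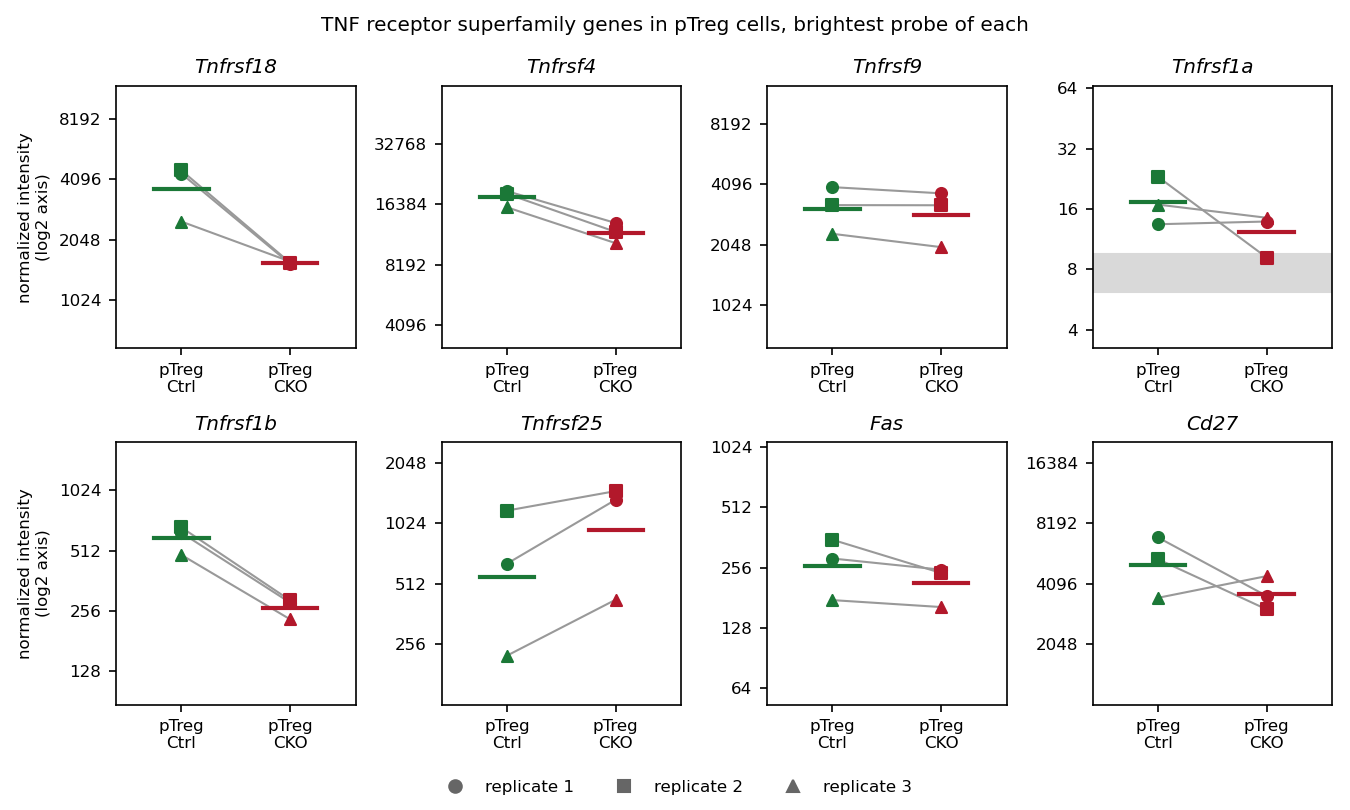
Normalized intensity (log2 axis, each panel over the same number of doublings) of the brightest probe of each receptor gene in pTreg Ctrl (green) and pTreg CKO (red) cells. Points are single arrays with a symbol per replicate, grey lines join arrays of one replicate number, bars mark the group mean on the log2 scale, and grey shading in the Tnfrsf1a panel shows where background lay, from 6.18 to 9.55. The 3 CKO arrays lie below the 3 Ctrl arrays for Tnfrsf18, Tnfrsf4 and Tnfrsf1b, and Tnfrsf25 is higher in CKO within each pair.

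The windows of 250 bases before the annotated gene start are shown for Tnfrsf18 and Tnfrsf1b, the receptors with the clearest difference, and for Tnfrsf25, the one that was higher. They come from RefSeq on GRCm38.p6, in which all 8 genes matched by symbol, with 10 starts in all, and each is written 5′ to 3′ on the strand of its gene. Capitals mark every match, on either strand, to GNGAAAG, the core of the sequence that Blimp1 is known to bind, or to GGGNNNNNCC, a loose form of the NF-kappaB site. The former is in 19.4% and the latter in 45.8% of 32851 such windows of all genes, so a match is common.
Tnfrsf18, chr4:156026072-156026321, plus strand: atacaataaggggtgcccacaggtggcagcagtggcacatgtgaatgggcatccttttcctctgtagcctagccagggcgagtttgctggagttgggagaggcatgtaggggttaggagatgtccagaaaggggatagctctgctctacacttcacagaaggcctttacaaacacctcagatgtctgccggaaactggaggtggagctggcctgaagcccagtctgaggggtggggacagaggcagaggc
Tnfrsf1b, chr4:145246871-145247120, minus strand: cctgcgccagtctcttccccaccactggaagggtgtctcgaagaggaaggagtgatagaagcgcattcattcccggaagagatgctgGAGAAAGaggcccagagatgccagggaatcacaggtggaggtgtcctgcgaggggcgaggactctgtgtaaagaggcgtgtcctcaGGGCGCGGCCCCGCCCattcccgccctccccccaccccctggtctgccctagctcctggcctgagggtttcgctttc
Tnfrsf25, chr4:152116093-152116342, plus strand: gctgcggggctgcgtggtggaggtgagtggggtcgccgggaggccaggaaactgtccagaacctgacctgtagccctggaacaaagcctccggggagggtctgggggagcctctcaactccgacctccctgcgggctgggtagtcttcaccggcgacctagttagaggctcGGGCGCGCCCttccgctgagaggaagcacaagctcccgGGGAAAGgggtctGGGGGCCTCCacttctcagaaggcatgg

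The Tnfrsf18 window held 0 matches to either pattern, and it overlaps the annotated gene Gm16008. The Tnfrsf1b window held 1 match to GNGAAAG, reading GAGAAAG and ending 157 bases before the start, and 3 overlapping matches to the NF-kappaB pattern between 77 and 62 bases before it. The Tnfrsf25 window, that of the downstream of its annotated starts, held 1 match to GNGAAAG, reading GGGAAAG and ending 35 bases before the start, and 3 to the NF-kappaB pattern, of which a pair covers the same bases on opposite strands. The window of the upstream Tnfrsf25 start, not printed, held 0 matches to GNGAAAG and 3 to the NF-kappaB pattern. Fas also held a GNGAAAG match, as CTTTCTC on the opposite strand. Binding was not measured.

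Among the TRAF-recruiting receptors, Tnfrsf18 encodes GITR, a costimulatory receptor that is abundant on Treg cells. Its normalized intensity was 4378, 4547 and 2527 in Ctrl replicates 1, 2 and 3 and 1555, 1574 and 1597 in the CKO replicates, or 3817 ± 1121 and 1575 ± 21.5 (SD, n = 3 each). The groups did not overlap, the CKO arrays lay close together, and the spread was in Ctrl, where replicate 3 was lowest. The log2 fold change was -1.23 (standard error 0.28, 95% interval -1.87 to -0.59), with an adjusted p of 0.176 from limma and of 0.0571 with the replicate block. In the pairs it was -1.49, -1.53 and -0.66, so the difference was smallest in replicate 3. A second probe gave 3288, 3125 and 2354 in Ctrl and 1073, 1479 and 1312 in CKO, also without overlap, and a log2 fold change of -1.18 (standard error 0.25). The study drew this gene among those that differed in pTreg cells, so its direction on these same samples is not independent evidence.

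Tnfrsf4, which encodes OX40, the receptor of OX40 ligand on antigen-presenting cells, lies next to Tnfrsf18 on chromosome 4. Its single probe had intensities of 19074, 18489 and 15841 in Ctrl and 13222, 11940 and 10492 in CKO. The groups did not overlap, and the log2 fold changes of the pairs, -0.53, -0.63 and -0.59, differed little. Over all arrays the log2 fold change was -0.58 (standard error 0.22), and limma gave an adjusted p of 0.488, or of 0.178 with the replicate block. The probe lies near the top of the scale, with 63 of the 45281 probes brighter on average, and whether the scale compresses differences there was not tested. On the same array, Tnfrsf18 minus Tnfrsf4 on the log2 scale averaged -2.27 ± 0.34 over the Ctrl arrays and -2.91 ± 0.19 over the CKO arrays (SD, n = 3 each), a difference of -0.64. In an exact two-sided permutation test the p was 0.1, the smallest that 3 against 3 arrays can give (adjusted p = 0.2 over 2 such comparisons), so the test could not pass 0.05 and decides nothing. In the pairs the difference was -0.97, -0.90 and -0.07, below 0 in each.

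Tnfrsf1b encodes TNFR2, which binds membrane TNF and is known to support expansion and stability of Treg cells. It gave 628, 667 and 487 in Ctrl and 281, 289 and 232 in CKO, or means of 594 ± 94.9 and 267 ± 30.6 (SD, n = 3 each). The groups did not overlap, and replicate 3 was the lowest of both. The log2 fold changes of the pairs were -1.16, -1.21 and -1.07, with -1.14 over all arrays (standard error 0.23, 95% interval -1.68 to -0.61). Limma's adjusted p was 0.14 without a block and 0.0346 with the replicate block. Its other probes were lower too, by -0.72 without overlap (standard error 0.28) and by -0.89 with overlap (standard error 0.42). When all probes above background were tested singly with the block, 0.844% were called, and 0 of the 19 receptor probes. Limma's adjusted p of the brightest Tnfrsf1b probe was then 0.0562. Myeloid cells are also known to express TNFR2. The summed myeloid markers, led by S100a8 and S100a9, were lower in CKO in each pair. Single markers did not all follow, and in replicate 2 Lyz2 (29.1 in Ctrl, 60.3 in CKO) and Cd14 (21.8 and 43.0) were higher in CKO. In both groups replicate 2 had the lowest myeloid sum and the highest Tnfrsf1b. The part of myeloid RNA in the difference of Tnfrsf1b was not tested.

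Tnfrsf9, which encodes 4-1BB, an activation-induced costimulatory receptor, had the smallest difference of the 8 genes. The intensities were 3967, 3228 and 2323 in Ctrl and 3694, 3222 and 1993 in CKO, and the groups overlapped almost fully. The log2 fold change was -0.11 with a 95% interval of -0.85 to 0.63 (adjusted p = 0.98 from limma), and the interval does not exclude a moderate difference in either direction. Its second probe differed by -0.07 on the log2 scale, and the third was at background on all arrays.

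Cd27 encodes the receptor of CD70 and is carried by naive and many Treg cells. Its brightest probe gave 6980, 5438 and 3488 in Ctrl and 3564, 3056 and 4477 in CKO. Replicates 1 and 2 were lower in CKO, by -0.97 and -0.83 on the log2 scale, and replicate 3 was higher, by 0.36. The log2 fold change was -0.48 (standard error 0.31, adjusted p = 0.822 from limma), and -0.91 (adjusted p = 0.648) when the pair of replicate 3 was left out, a choice made after seeing the data. It was smaller under other choices, with -0.23 on the slide of replicates 2 and 3, -0.30 without the pair of replicate 2, also chosen after seeing the data, and -0.25 without Ctrl replicate 1. The other probes did not share the reversal in replicate 3. One differed by -0.95, -1.29 and -0.15 within the pairs, with no overlap of the groups and -0.79 in all (standard error 0.29), and the other by -0.69 (standard error 0.33).

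**Figure D2:**
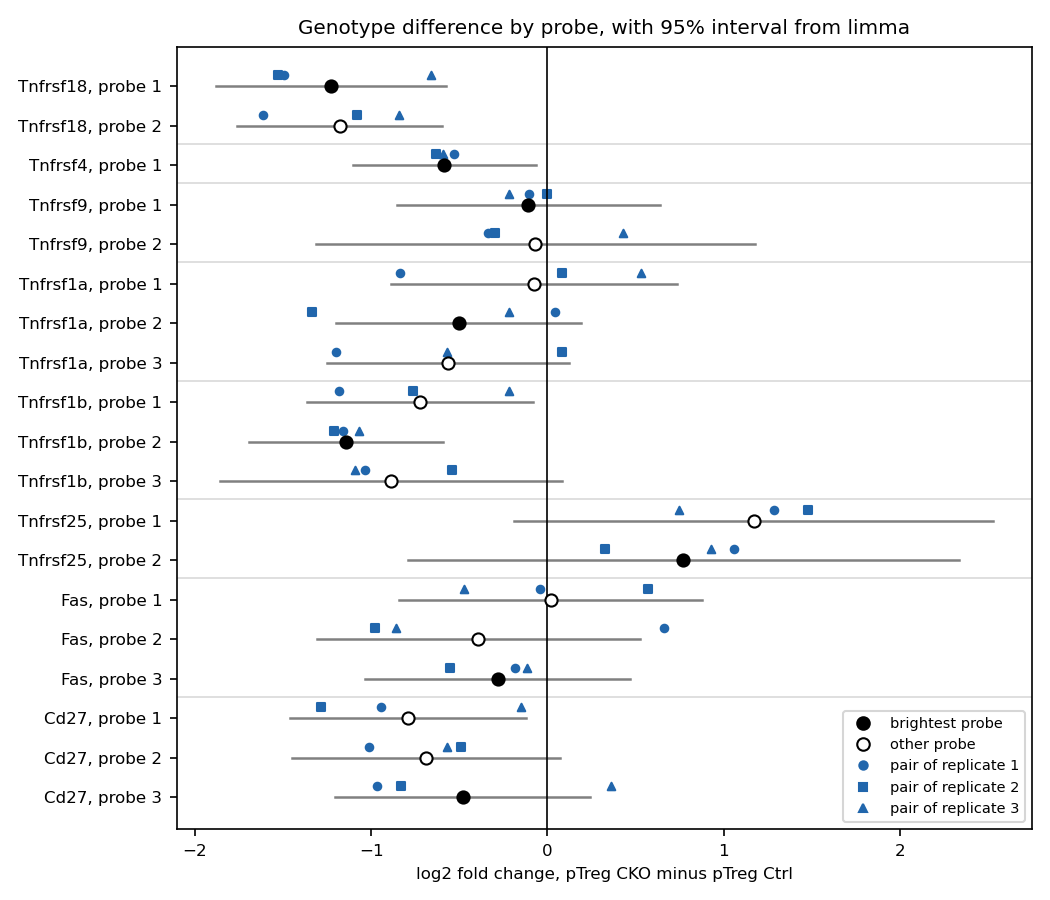
Log2 fold change, pTreg CKO minus pTreg Ctrl, of the 19 receptor probes above background on at least 2 arrays. Circles are limma estimates with 95% intervals (filled for the brightest probe of a gene), and small blue symbols above them are the differences of the 3 pairs. In all, 16 probes lie below 0 and 3 above, and the probes of Tnfrsf18 and of Tnfrsf1b lie below 0 in every pair. Tnfrsf1a probe 3 passed the filter on Ctrl arrays alone, with all CKO values at background, so its place below 0 follows from the filter. Probes of 1 gene are not separate evidence.

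Of the death domain receptors, Tnfrsf25, which encodes DR3, the receptor of TL1A, was the only one of the 8 genes with a higher mean in CKO cells. It gave 644, 1184 and 224 in Ctrl and 1342, 1481 and 426 in CKO. The groups overlapped, and the replicates differed more than the genotypes, with replicate 3 low in both. The log2 fold change was 0.77 (standard error 0.68, 95% interval -0.80 to 2.34, adjusted p = 0.90 from limma), and in the pairs it was 1.06, 0.32 and 0.93. A second, dimmer probe gave 33.1, 42.8 and 15.9 in Ctrl and 80.6, 119 and 26.6 in CKO, with pair differences of 1.29, 1.48 and 0.74 and 1.17 in all. Both probes were higher in CKO in every pair, and the blocked fit gave the gene an adjusted p of 0.145, which does not pass, with a p of 0.0096 before adjustment. Without Ctrl replicate 3 the log2 fold change was 0.12, and without CKO replicate 3 it was 1.34.

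Fas, the receptor of Fas ligand, had intensities of 284, 353 and 176 in Ctrl and 250, 241 and 163 in CKO. The groups overlapped, and the log2 fold change was -0.28 (standard error 0.32, 95% interval -1.03 to 0.46, adjusted p = 0.933 from limma). Other probes gave 0.02 and -0.39, and the last was above background on 1 array. With single arrays left out, the log2 fold change of the brightest probe stayed below 0, between -0.56 and -0.06.

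Tnfrsf1a encodes TNFR1, which binds soluble TNF and is found on most cell types. All 3 of its probes were near background here. The brightest gave 13.4, 23.2 and 16.8 in Ctrl and 13.9, 9.16 and 14.5 in CKO, where the CKO value of replicate 2 is the background level of that array. The log2 fold change was -0.50 (standard error 0.30, adjusted p = 0.777 from limma), carried by replicate 2, with 0.05, -1.34 and -0.22 in the pairs. Another probe exceeded background on 2 Ctrl arrays, at 17.3 and 13.2 in replicates 1 and 3, and on 0 CKO arrays (adjusted p = 0.778 from limma). On the same array, Tnfrsf1a minus Tnfrsf1b on the log2 scale averaged -5.08 ± 0.40 over the Ctrl arrays and -4.44 ± 0.49 over the CKO arrays (SD, n = 3 each). The exact permutation p of this difference between the groups was 0.3, in a test that cannot go below 0.1, and 1 of the values rests on the background level, so it decides nothing.

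The 8 genes also differed in how far they moved from replicate to replicate. The mean of Ctrl and CKO of a replicate number spanned 2.10 on the log2 scale for Tnfrsf25, 0.83 for Tnfrsf9 and 0.78 for Fas, and 0.19 to 0.41 for the other 5. Replicate 3, which shares a slide with replicate 2, was the lowest number for 7 of the 8 genes, all but Tnfrsf1a. The standard deviation within groups of Tnfrsf25, 1.11 on the log2 scale, was above that of 98.1% of all genes, whereas that of Tnfrsf4, 0.16, was above that of 7.97%. With the replicate block, which takes out the spread between numbers, the standard errors of the genotype difference were 0.22 for Tnfrsf25 and 0.18 for Tnfrsf4, against 0.68 and 0.22 without it.

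**Figure D3:**
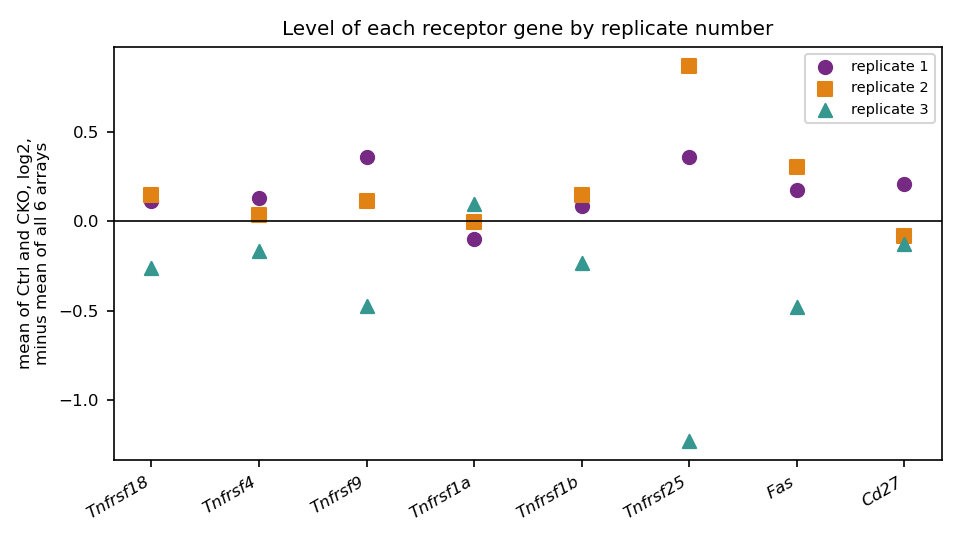
Mean of the Ctrl and CKO array of each replicate number on the log2 scale, minus the mean of all 6 arrays, for each receptor gene. Tnfrsf25 spans 2.10 with replicate 3 lowest, and replicate 3 is lowest for all genes but Tnfrsf1a, at smaller spans.

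The ligands of the 8 receptors were measured in the same cells. Of 8 ligand genes 5 were tested, 0 passed limma's adjusted p, 1 had an unadjusted p under 0.05, and 1 was higher and 0 were lower at the study's thresholds (median log2 fold change -0.22). This was Lta, lymphotoxin alpha, which binds both receptors of TNF, with 208, 271 and 306 in Ctrl and 625, 873 and 503 in CKO. Its groups did not overlap. It differed by 1.33 on the log2 scale, at adjusted p-values from limma of 0.159 without and 0.0507 with the replicate block. Tnf itself gave 3087, 3443 and 3155 in Ctrl and 2651, 2755 and 1438 in CKO, lower on every CKO array, at an adjusted p of 0.731. Fasl, the ligand of Fas, had a log2 fold change of -0.22. The ligands of GITR, OX40 and DR3, Tnfsf18, Tnfsf4 and Tnfsf15, were not above background on any array.

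Of 20 other receptors of the superfamily 8 were tested, 2 lower and 6 higher, with a median log2 fold change of 0.30. Limma's adjusted p was passed by 0 of them and an unadjusted p under 0.05 by 1, and this gene, Tnfrsf26, a little-studied receptor gene of the mouse, was higher at the study's thresholds. Its probe was dim, with 29.5, 14.9 and 11.7 in Ctrl and 52.6, 76.0 and 32.5 in CKO, and did not overlap between groups (log2 fold change 1.55; limma's adjusted p was 0.288, or 0.0567 with the replicate block). Tnfrsf13b, which encodes TACI, a receptor best known from B cells, differed by 0.86 on the log2 scale (standard error 0.46), and Tnfrsf22, a decoy receptor of TRAIL, by 0.57. Neither passed the adjusted p. B cell markers were at or near background on the arrays.

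Inside the cell, 0 of 6 TRAF adaptor genes tested, 0 of 10 genes of death domain signalling and 0 of 13 genes of NF-kappaB signalling passed limma's adjusted p. The study's thresholds were met by 0, and an unadjusted p under 0.05 by 1, 1 and 0 of them. These were Traf5, with a log2 fold change of 0.57, and Casp8, the caspase that Fas activates, with -0.53. Their median log2 fold changes were -0.27, -0.28 and -0.24, with 5 of 6, 8 of 10 and 10 of 13 lower. Traf1, an adaptor bound by TNFR2 and 4-1BB, gave 5960, 2791 and 1401 in Ctrl and 3403, 3313 and 1397 in CKO. It spread more over replicates than between genotypes. Tank, a TRAF-binding protein, had a log2 fold change of -0.31. Faf1 and Siva1, which bind Fas and CD27, had -0.13 and 0.40. Rela, the p65 subunit of NF-kappaB, had 0.08, and Nfkbia, which holds NF-kappaB in the cytoplasm and is itself induced by it, had -0.67 (standard error 0.36). In the Treg marker list, by contrast, 2 of 8 genes fell, Gpr83 with a log2 fold change of -3.07 and Izumo1r with -2.63 (adjusted p = 0.0276 from limma for each), and 4 were lower at the study's thresholds, Ctla4 and Ikzf2 besides these. The 2 Treg markers that were not lower were Foxp3, with 0.03, and Nrp1, with 0.26.

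**Figure D4:**
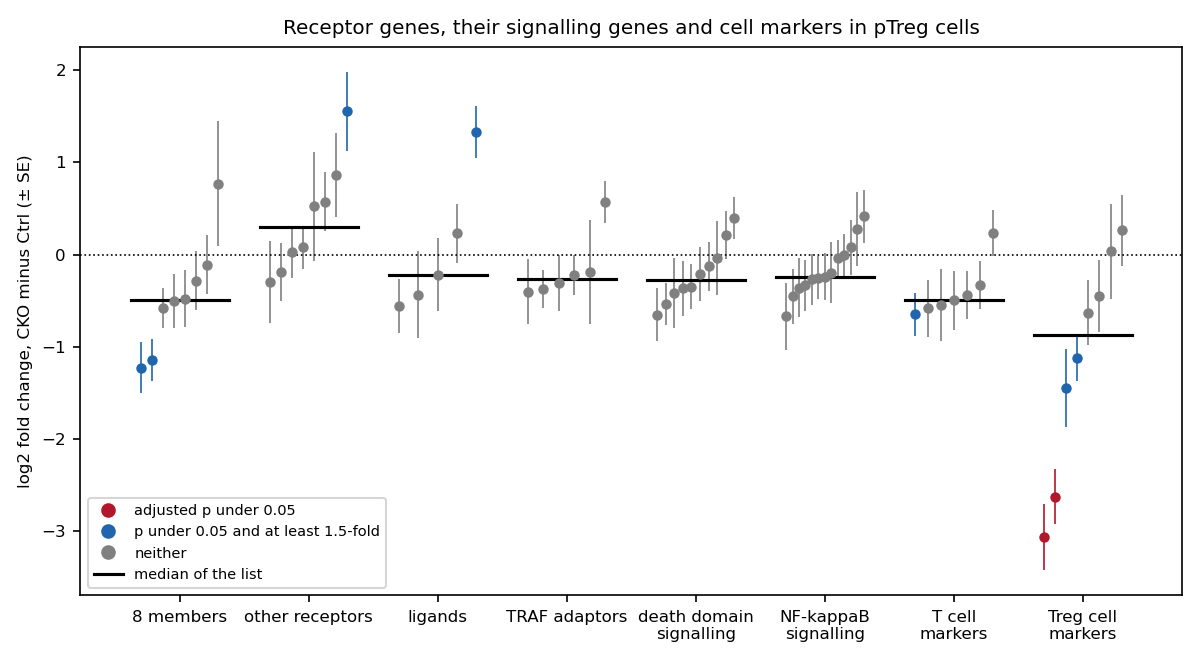
Log2 fold change (CKO minus Ctrl, ± standard error from limma) of the tested genes of the receptors, their partners and the markers of T cells and Treg cells. Red points passed an adjusted p of 0.05, blue points met the study's thresholds only, and horizontal bars are medians, at -0.49 for the 8 receptors and 0.30 for the other receptors. The points at an adjusted p under 0.05 are Gpr83 and Izumo1r.

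By position, 5 of the 8 genes, Tnfrsf18, Tnfrsf4, Tnfrsf9, Tnfrsf1b and Tnfrsf25, lie on chromosome 4, Tnfrsf1a and Cd27 on chromosome 6 and Fas on chromosome 19. No tested gene lies between Tnfrsf4 and Tnfrsf18. Of the 5 nearest tested genes on either side, looked up after the receptor values were seen, 5 were lower and 5 higher, with a median log2 fold change of -0.06. The adjusted p from limma was passed by 0 of the 10, and 3 had an unadjusted p under 0.05, a larger share than the 773 of all 9593 genes. Sdf4, which encodes a Golgi calcium-binding protein and overlaps the window before the Tnfrsf4 start, was higher by 0.81 (standard error 0.24, adjusted p = 0.313). C1qtnf12, a few tested genes away on the same side, was lower by -1.56 (standard error 0.34), at an adjusted p of 0.171 and, with the replicate block, of 0.0471. Agrn, on the side of Tnfrsf18, had -0.66.

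**Figure D5:**
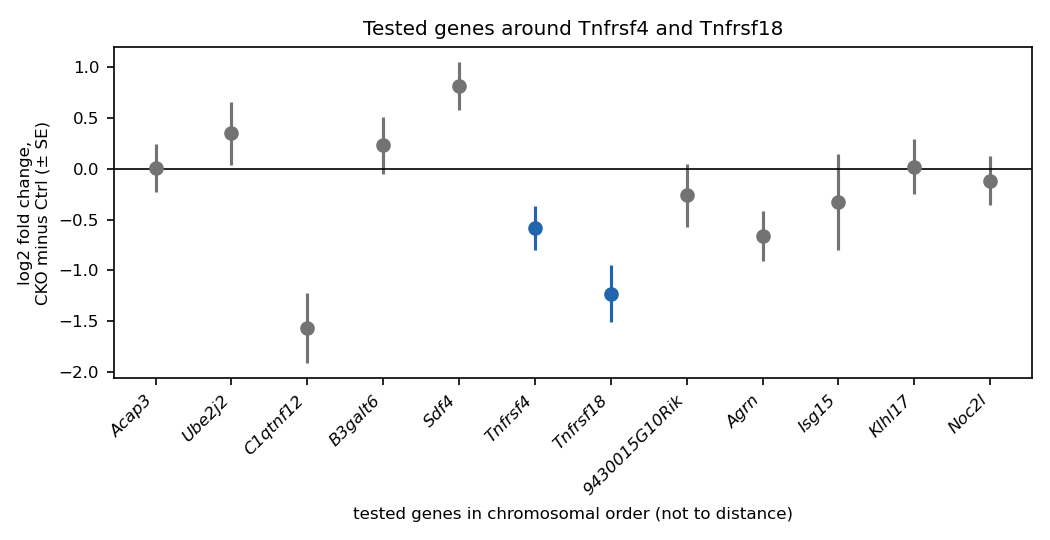
Log2 fold change (CKO minus Ctrl, ± standard error from limma) of Tnfrsf4 and Tnfrsf18 (blue) and of the 5 nearest tested genes on either side (grey), in chromosomal order and not to distance. Sdf4, next to Tnfrsf4, is at 0.81, and C1qtnf12 is at -1.56.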

How the data were processed

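The deposited values are linear intensities that the authors took from Genome Studio and quantile normalized. Between 35.4% and 36.0% per array lie below 0, so background had been subtracted, and each slide (1 with replicate 1, 1 with replicates 2 and 3) had been normalized on its own. Here all 6 columns were quantile normalized again, raised to the background of each array, the 95th percentile over 1504 probes of olfactory and vomeronasal receptors (6.18 to 9.55, in place of detection p-values), and taken to log2. Per array 32.3% to 38.3% of probes lay above it. Of 17294 probes above it on at least 2 arrays, the brightest of each gene gave 9593 genes. In the annotation 34885 probes have 1 symbol, 18 several and 10378 none. Precision is limited by the number of arrays, 3 per group, called biological replicates by the study.

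Genotypes, as labelled, were compared by limma (version 3.58.1, R 4.3.3; lmFit, eBayes, no block, Benjamini-Hochberg over all genes). Folds come from means of log2 values, and pairs are CKO minus Ctrl of one replicate number. Rose and fell mean an adjusted p under 0.05. Numbers pair the samples: the labels give replicates 2 and 3 a shared day each, replicate 1 shares a slide, and across genes the Ctrl and CKO arrays of a number deviated together (r = 0.51, 0.49 and 0.56). Alternatives covered normalization, floor, filter, probe choice, blocks, slides and arrays left out. The steps were also run, without the block, on simulated data. Its arrays were drawn independently, unlike the paired arrays here, so the run does not check the blocked fit. Receptors, gene lists and alternatives were chosen with earlier results of these data known. Named by rule were the 8 receptors, Prdm1, Foxp3, the genes of a list past a threshold, its 2 brightest genes, and the 3 genes most correlated with each receptor. The neighbours of Tnfrsf4 and Tnfrsf18, marker genes and ligands at background lie outside it and were named after their values were seen.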

Additional observations from a re-analysis of the deposited data

How the results depend on the processing

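Of the 8 receptors, 6 kept the direction of their difference under all 23 alternatives run. Tnfrsf1a kept it too, but on slide 1 alone only because another probe was then the brightest (-0.86), while its usual probe differed by 0.05 there. Tnfrsf9 kept it under 21, with reversed log2 fold changes of 0.07 without Ctrl replicate 1 and 0.15 without CKO replicate 3 (-0.32 to 0.15 over the arrays left out). Part of the 23 could not change a direction. The blocks, the trended, robust prior, the study's thresholds and probes tested singly alter the test and not the fold change. For genes whose groups did not overlap, leaving out arrays could hardly reverse it. The counts of kept directions are therefore not 23 separate checks. Over the 23 alternatives the log2 fold change of Tnfrsf18 was -1.52 to -1.08 and its adjusted p 0.0394 to 0.666, and that of Tnfrsf1b -1.28 to -0.92 with 0.0346 to 0.605. Against 0 receptors, 2 were called without a filter on dim probes (Tnfrsf18 -1.23, adjusted p 0.0394, and Tnfrsf1b -1.14, adjusted p 0.0376), 1 with the replicate block (Tnfrsf1b -1.14, adjusted p 0.0346) and 2 at the study's thresholds (Tnfrsf18 -1.23 and Tnfrsf1b -1.14). Without the filter, probes at background on all arrays enter the fit, and 150 genes were called in all. The fold changes of both receptors were unchanged there, and limma's unadjusted p of Tnfrsf18 went from 0.00232 to 0.000265. At the adjusted p the block changed no other call of a receptor, and at the study's thresholds it added Tnfrsf25, which was higher. Against 26 genes and 27 probes, limma called 40 and 50 with an offset in place of the floor, 150 and 796 without the filter, 183 and 146 with the replicate block, 16 and 7 with the slide as a block, and 50 and 52 with a trended, robust prior. The study's thresholds were met by 712 and 1224. With 1 array left out, 1 to 10 genes and 1 to 7 probes were called. On slide 2 alone, which leaves out the pair of replicate 1, limma called 0 and 0 (611 genes and 1066 probes at an unadjusted p under 0.05). Chosen after seeing the data, leaving out the pair of replicate 2 gave 1 and 1, leaving out that of replicate 3 gave 0 and 0 (590 genes and 949 probes at an unadjusted p under 0.05), and 1 floor for all arrays gave 3 probes. Slide 1 holds 1 array per group, which gives values and no test. With fewer arrays the tests have fewer degrees of freedom. Other causes were not tested. The difference between Tnfrsf18 and Tnfrsf4 was -0.92 on slide 1 and -0.93 without the pair of replicate 3. Tnfrsf1a, close to background, ranged from -0.86 to -0.09.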

Other observations

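The genes whose log2 values followed each receptor most closely over the 6 arrays were listed as a description, and the points share genotype, slide and replicate number. For Tnfrsf18 they were Dhrs1, Ccnt1 and Gadd45a (Pearson r = 0.99, 0.99 and 0.98, n = 6 arrays), and for Tnfrsf1b Ccnt1, Phf11a and Fcho1 (r = 0.99 each). Ccnt1, which encodes cyclin T1, thus appears beside both, although its own log2 fold change was -0.25, while Gadd45a, a stress-response gene, had -1.62 and Phf11a -1.59. For Tnfrsf4 they were Cyth3, Dok2 and Ypel3 (r = 0.99 each), with log2 fold changes of -0.86, -0.88 and -1.53. Dok2 is an adaptor that dampens T cell receptor signals.

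For the other receptors the closest genes were Antxr2, Sertad1 and Sbds for Tnfrsf9 (log2 fold changes between -0.15 and -0.08), Chchd2, Ppip5k1 and Tfcp2l1 for Fas (-0.46 to -0.27), Slc25a24, Tmed2 and Fam189b for Cd27, and Ankfy1, Hdac4 and Tango2 for the dim Tnfrsf1a. Beside Tnfrsf25 stood Npy, which encodes neuropeptide Y (r = 0.98, n = 6 arrays; log2 fold change 0.997), with Oxld1 and Chic1.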
